A study of Mus musculus with 6 samples.

Results

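The 10 genes described here handle iron and haem in the cell: the uptake genes Tfrc, Trf and Slc11a2, the ferritin chains Fth1 and Ftl1, the exporter Slc40a1, the regulator Ireb2, the haem-degrading enzyme Hmox1, the red cell haem synthesis enzyme Alas2, and the adult beta globin Hbb-b1, read as a blood signal. They were chosen by symbol, and all 10 were present among the 34591 gene rows and among the 16768 genes that passed the filter on low counts. The data are RNA-seq gene counts of tumours from a mouse model of WNT medulloblastoma, a hindbrain tumour in which the WNT pathway is active. By label, 3 libraries are of the medulloblastoma control model and 3 of the sh2-Ift88 model (shIft88 1, 2 and 3), in which a short hairpin RNA targets Ift88, a component of the machinery that assembles primary cilia. According to its title the series concerns cilia, translation and cell division, and the comparison of both groups asks how the tumours differ when Ift88 is targeted. Strain, age, driver alleles and the way the hairpin was delivered are not stated in the labels, nor is it said that each library came from a separate animal. A p-value here therefore sets a group difference against the variation among these samples, which may be partly technical.

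Cells take up iron mainly as transferrin, which binds the transferrin receptor at the surface and releases its iron in the endosome. Iron that is not used is stored inside ferritin shells or leaves the cell through ferroportin. The iron regulatory proteins, among them the product of Ireb2, bind a short RNA hairpin, the iron-responsive element, when iron is scarce. Bound in a 3′ UTR the hairpin protects the transcript from decay, and bound in a 5′ UTR it blocks translation, so that in the second case a response to iron need not appear in RNA counts. Most body iron sits in the haem of red cells, and haem released from them is opened by haem oxygenase.

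The iron-responsive elements of the members are shown because they separate the transcript whose abundance iron controls, Tfrc, from those controlled at translation. The search was for a C, 5 bases, the loop CAGTGN and 5 bases more, on the sense strand of GENCODE M21 transcripts (GRCm38, a later build than that of the counts). All 5 pairs of the upper stem and at least 3 of 6 pairs of the lower stem had to form, with G-T pairs allowed. Capitals mark the loop and T stands for U.
Tfrc element 1: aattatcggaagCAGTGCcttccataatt
Tfrc element 2: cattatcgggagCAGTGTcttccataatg
Tfrc element 3: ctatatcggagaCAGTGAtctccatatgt
Tfrc element 4: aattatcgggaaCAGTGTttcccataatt
Fth1: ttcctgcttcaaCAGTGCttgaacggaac
Ftl1: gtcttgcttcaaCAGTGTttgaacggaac
Slc40a1: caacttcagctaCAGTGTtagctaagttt
Alas2: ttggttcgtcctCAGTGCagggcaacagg

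The 4 Tfrc elements lie in the 3′ UTR in exon 19, on the plus strand of GRCm38, at chr16:32631219-32631247, chr16:32631598-32631626, chr16:32631663-32631691 and chr16:32631710-32631738. Those of the other genes lie in the 5′ UTR: Fth1 at chr19:9982732-9982760 on the plus strand, Ftl1 at chr7:45459779-45459807 and Slc40a1 at chr1:45925465-45925493 on the minus strand, all in exon 1. The Alas2 element crosses the junction of exon 1 and exon 2, so its span of chrX:150547458-150552149 on the plus strand includes an intron. Such an element was found in the 5′ UTR of 11 of 20899 genes (0.0526%) and in the 3′ UTR of 48 of 21685 (0.221%). Slc11a2, whose transcripts are known to carry a variant element, did not match this string, which says only that these letters were not found.

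None of the 10 genes passed the test between the groups, and for 8 of them the levels of both groups overlapped. At an adjusted p of 0.05 edgeR's quasi-likelihood test called 0 of the 10, and 0 of all 16768 genes (0%). The smallest adjusted p over all genes was 0.9995, which was also that of each member. At an unadjusted p of 0.05 edgeR gave 541 genes (3.23%), Trf alone among the members, and DESeq2 called 58 genes after adjustment (0.346%), none of them a member. The count at an unadjusted p of 0.05 was 987 of 17324 genes without control 1 and 902 of 31004 without a filter on low counts. In the libraries labelled sh2-Ift88, 3 members had a higher fitted level and 7 a lower, with a median log2 fold change of -0.32, beside 8165 higher and 8603 lower among all tested genes and a median of -0.012. The groups did not overlap for 2 members, Trf (higher) and Tfrc (lower), where 4.7% of all tested genes were higher and 3.69% lower without overlap, 8.39% together. Ift88 itself was at 455, 607 and 553 reads in the controls, against 519, 477 and 231 in those labelled sh2-Ift88 (log2 fold change -0.064, SE 0.27, edgeR adjusted p = 0.9995), so the labels are not checked by the targeted gene.

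**Figure D1:**
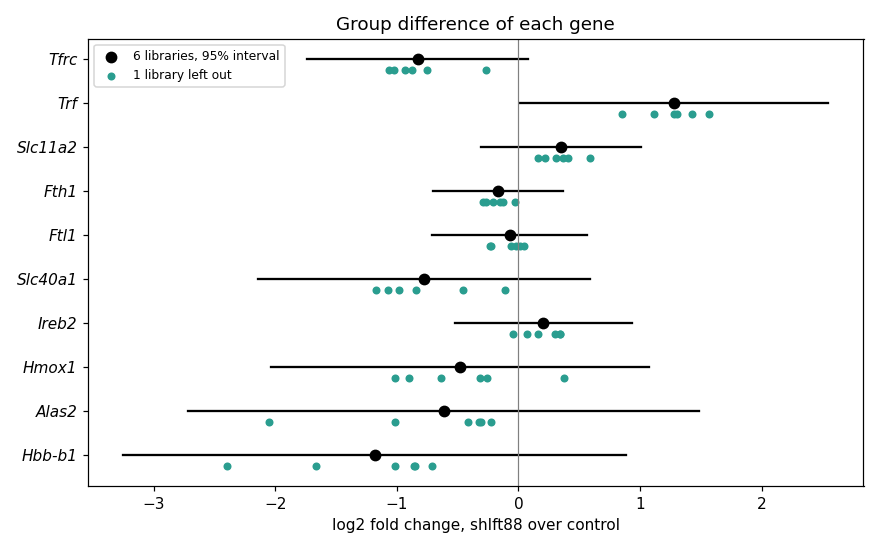
Log2 fold change (shIft88 over control) of each gene from the fit over all 6 libraries (black, with its 95% confidence interval) and with 1 library left out at a time (green). The interval of Trf alone lies above 0, from 0.012 to 2.55, before any adjustment for the number of genes; Tfrc moves to -0.27 without control 3.

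Gene counts summed to between 26802618 and 33772559 per library. The library shIft88 3 stood apart: 4 gene rows (Gm10800, Gm16869, Gm10718 and Gm10722) took 40.5% of its counts, against 0.0269% to 8.88% in the others, and its scaling factor was 0.598 where the others had 1.05 to 1.24. Levels below are counts-per-million values (CPM) on scaled library sizes. With library totals alone every level of shIft88 3 is lower, the median log2 fold change of all genes moves from -0.012 to -0.33, and 1.07% of genes are higher and 10.2% lower without overlap. On that scale the members without overlap were Tfrc and Fth1, both lower, and Trf overlapped. Olfactory receptor genes, which belong to the sensory cells of the nose, had reads for 387 to 564 genes in control 2, shIft88 2 and shIft88 3 and for 24 to 38 in the other libraries. In whole tumours, fewer cells of a type and less RNA per cell cannot be told apart.

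Tfrc encodes the transferrin receptor, the main entry route of iron into dividing cells. Its level was 86.1, 78.5 and 200 CPM in control 1, 2 and 3, against 75.6, 61.3 and 69.0 CPM in shIft88 1, 2 and 3. Control 3 stood at 2.33 times the next library, and the other 5 libraries lay within 61.3 to 86.1 CPM, with the controls above each library labelled sh2-Ift88. Group levels were 122 ± 68.3 and 68.6 ± 7.18 CPM (mean ± SD, n = 3 each), a log2 fold change of -0.83 ± 0.39 (SE; edgeR adjusted p = 0.9995). Without control 3 it was -0.27. The genes whose pattern over the 6 libraries was most like that of Tfrc were Ifrd2, Yars2 (the mitochondrial tyrosyl-tRNA synthetase) and Nt5c3l, with Pearson r of 0.995, 0.992 and 0.988 among 14741 genes. All 3 were highest in control 3, where Ifrd2 was at 49.7 CPM against 11.2 to 16.3 CPM elsewhere. In that library 12 mature neuron markers summed to 576 CPM, against 58.7 and 190 CPM in control 1 and control 2. They summed to 429, 191 and 19.6 CPM in shIft88 1, 2 and 3, though Tfrc was lower in shIft88 1 than in control 1. The 12 endothelial markers summed to 102 CPM in control 3, against 112 to 187 CPM in the others. The part of such cells in the level of Tfrc was not tested.

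Transferrin itself, encoded by Trf, is made in brain mainly by oligodendrocytes and the choroid plexus. Its counts were low, with 40, 51 and 77 reads in the controls, against 204, 64 and 59 in those labelled sh2-Ift88. That was 1.21, 1.66 and 1.90 CPM in the controls, against 5.77, 2.15 and 3.69 CPM in those labelled sh2-Ift88. The groups did not overlap on this scale, but the lowest library labelled sh2-Ift88 exceeded the highest control by little, and with library totals alone control 3 (2.35 CPM) lay above shIft88 3 (2.20 CPM). The log2 fold change was 1.28 ± 0.54 (SE; unadjusted p = 0.0483 and adjusted p = 0.9995 in edgeR), and it was 0.85 without shIft88 1. In shIft88 1, where Trf was highest, the choroid plexus gene Ttr was at 1389 CPM, against 0.0494 to 0.739 CPM in the others. The 10 choroid plexus markers summed to 1772 CPM there, most of it Ttr. They summed to 398, 475 and 32.9 CPM in the controls and to 350 and 299 CPM in shIft88 2 and 3. Apart from Ttr, the markers together were higher in control 1 and control 2 than in shIft88 1. Summed over 12 markers, oligodendrocyte RNA was at 22.6, 126 and 269 CPM in the controls, against 67.6, 104 and 24.1 CPM in those labelled sh2-Ift88. Of these markers Ugt8a and Opalin had 0 reads in control 1 and Sox10 had 0 in shIft88 1 and 3 and Olig1 in shIft88 3; of the choroid plexus markers Tmem72 had 0 in control 1 and Kcne2 had 0 in control 3. Their part in the level of Trf was not tested. Most like Trf over the 6 libraries were Erbb2ip (r = 0.989), Gm17251 (0.987) and 4833439L19Rik (0.986).

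Slc11a2 encodes DMT1, which carries iron out of the endosome into the cytosol. The gene stood at 51.4, 37.5 and 28.9 CPM in the controls, against 47.6, 58.7 and 43.7 CPM in those labelled sh2-Ift88. The groups overlapped, since control 1 lay above 2 of the libraries labelled sh2-Ift88. Its log2 fold change was 0.35 ± 0.28 (SE; edgeR adjusted p = 0.9995), with a 95% interval from 80.8% to 201% of the control level. With 1 library left out it lay between 0.16 (without control 3) and 0.59 (without control 1), always above 0.

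**Figure D2:**
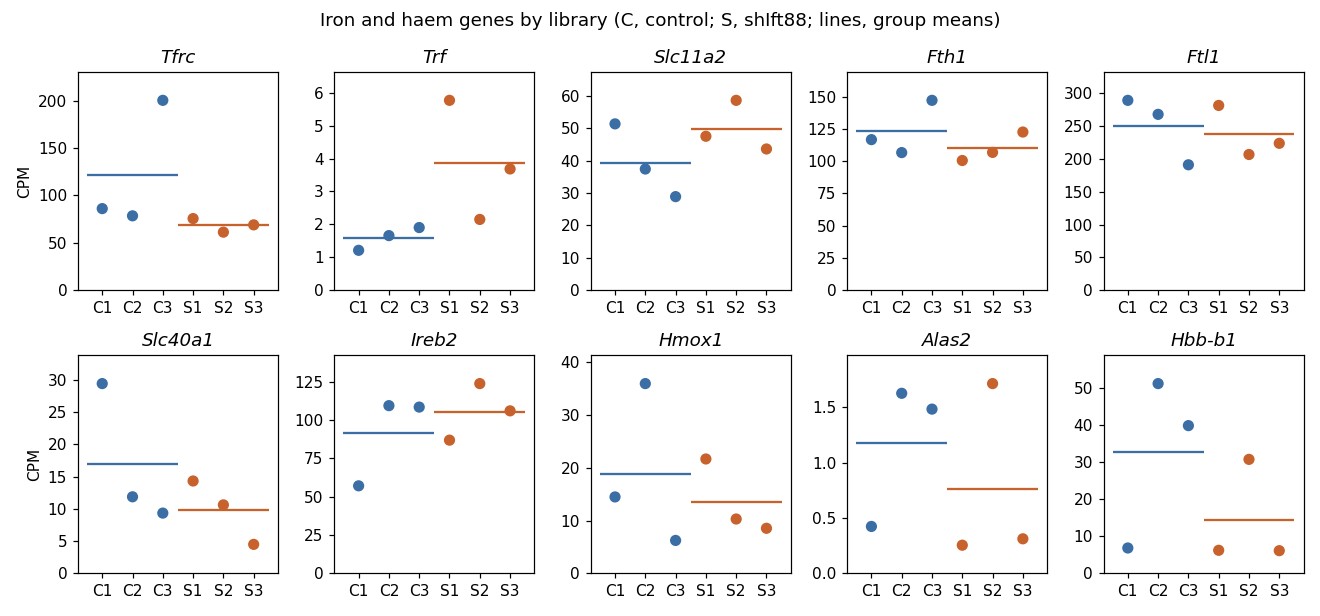
CPM of each of the 10 genes (vertical axis from 0) in the 3 controls (C1 to C3, blue) and the 3 libraries labelled sh2-Ift88 (S1 to S3, orange), with group means as lines. Fth1 and Ftl1 stay within about the same level in all libraries, Tfrc is high in C3, and Alas2 and Hbb-b1 are high in C2, C3 and S2.

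The ferritin chains were the steadiest members. Fth1 encodes the heavy chain, which oxidises iron for storage, and Ftl1 the light chain, which supports the mineral core. Fth1 was at 117, 107 and 147 CPM in the controls, against 101, 107 and 123 CPM in those labelled sh2-Ift88. Ftl1 was at 289, 268 and 191 CPM in the controls, against 282, 207 and 224 CPM in those labelled sh2-Ift88. The highest library exceeded the lowest 1.46 times for Fth1 and 1.51 times for Ftl1, where the median tested gene spanned 2.49 times. The SD over 6 libraries on the log2 scale had percentile 7.13 among all tested genes for Fth1 and 15.4 for Ftl1. Both are also abundant, with percentiles of 91.5 and 97.1 for mean CPM. Log2 fold changes were -0.17 (SE 0.23) for Fth1 and -0.072 (SE 0.27) for Ftl1, each with an edgeR adjusted p of 0.9995. Their 95% intervals ran from 61.4% to 129% and from 61.2% to 148% of the control level. Ftl2, a near copy of Ftl1, was listed separately, and how reads were shared between such copies is not stated.

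Set against each other within a library, which needs no scaling, the ferritin chains varied more than either did alone, their ratio spanning 2.16 times. The ratio of Fth1 to Ftl1 reads was 0.403, 0.398 and 0.770 in the controls, against 0.357, 0.517 and 0.548 in those labelled sh2-Ift88. Control 3 was the highest, having both the highest Fth1 and the lowest Ftl1, and shIft88 1 the lowest. Group means were 0.524 ± 0.213 and 0.474 ± 0.102 (SD, n = 3 each; exact permutation test, two-sided p = 0.8, adjusted p = 0.8 over 4 such tests). The ratio of Tfrc to Fth1, receptor over storage chain, was 0.738, 0.736 and 1.36 in the controls, against 0.752, 0.573 and 0.562 in those labelled sh2-Ift88. It was again highest in control 3, and shIft88 1 lay above 2 of the controls. Its group means of 0.945 ± 0.361 and 0.629 ± 0.106 (n = 3 each) were not separated by the test (exact permutation p = 0.3, adjusted p = 0.6). With 3 libraries a group this test cannot go below 0.1.

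**Figure D3:**
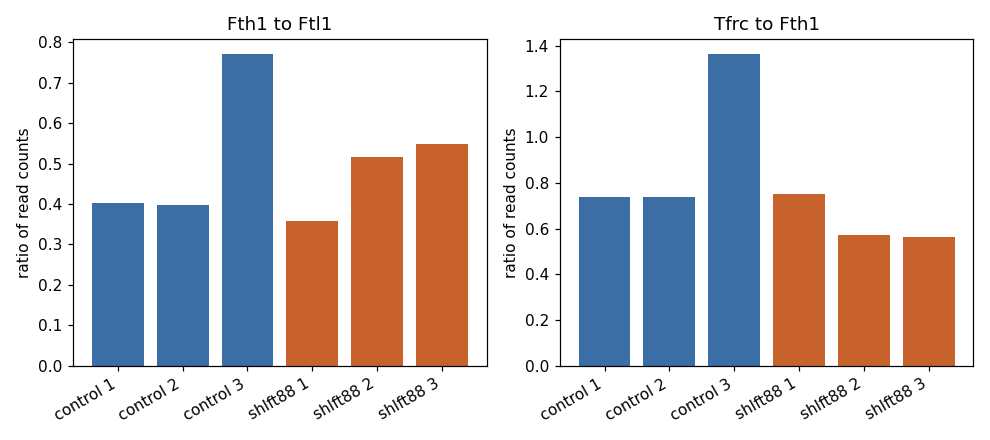
Ratio of read counts (bars from 0) of Fth1 to Ftl1 and of Tfrc to Fth1 in each library, controls in blue and libraries labelled sh2-Ift88 in orange. Control 3 is highest in both panels, at 0.770 and 1.36.

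Slc40a1 encodes ferroportin, the cell's iron exporter, which is abundant in macrophages that recycle red cells. Its level was 29.4, 11.9 and 9.34 CPM in the controls, against 14.3, 10.6 and 4.50 CPM in those labelled sh2-Ift88. Control 1 stood 2.05 times above the next library and shIft88 3 was the lowest, with the remaining 4 between them. The log2 fold change was -0.78 ± 0.58 (SE; edgeR adjusted p = 0.9995), and without control 1 it was -0.11, without shIft88 3 -0.46 and without shIft88 1 -1.17. The low level in shIft88 3 went with the lowest sum of 15 macrophage and microglia markers, 157 CPM against 260 to 388 CPM in the others. The high level in control 1 did not, as those markers summed to 261 CPM there. None of the 15 was at 0 in any library. Their part in the level of Slc40a1 was not tested.

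Ireb2 encodes iron regulatory protein 2, which is destroyed when iron is plentiful, so its transcript level is not a reading of its activity. The transcript stood at 57.1, 109 and 109 CPM in the controls, against 86.9, 124 and 106 CPM in those labelled sh2-Ift88. Control 1 was the lowest library and the groups overlapped. The log2 fold change was 0.20 ± 0.31 (SE; edgeR adjusted p = 0.9995). On library totals alone it was -0.12, which is still above the median of all genes on that scale, and without control 1 it was -0.048.

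Hmox1 encodes the inducible haem oxygenase, which opens haem and frees its iron, and which responds to haem and to oxidative stress through the factors BACH1 and NRF2. Its RNA stood at 14.5, 36.0 and 6.25 CPM in the controls, against 21.7, 10.3 and 8.56 CPM in those labelled sh2-Ift88. Control 2 was the highest and control 3 the lowest, so that the controls alone spanned the whole range of 5.76 times. The log2 fold change was -0.48 ± 0.66 (SE; edgeR adjusted p = 0.9995), and it turned to 0.38 without control 2. Hmox1 did not follow the haemoglobin signal: control 2 and control 3, both high in Hbb-b1, held the highest and the lowest Hmox1. The 15 macrophage and microglia markers summed to 287 CPM in control 2, where Hmox1 was highest, and to 307 CPM in control 3, where it was lowest, within a range of 157 to 388 CPM over the 6 libraries. The part of such cells in the level of Hmox1 was not tested. Genes most like Hmox1 over the 6 libraries were Spna2 (r = 0.987), Srgap1 (0.986) and Mgat5 (0.986).

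Haemoglobin and Alas2 separated the libraries in a way that cut across the groups. Hbb-b1 was at 6.84, 51.1 and 39.8 CPM in the controls, against 6.22, 30.7 and 6.12 CPM in those labelled sh2-Ift88. Control 2, control 3 and shIft88 2 were thus high and the other 3 low, with nothing between 6.84 and 30.7 CPM. The log2 fold change was -1.18 ± 0.88 (SE; edgeR adjusted p = 0.9995). Without shIft88 2 it was -2.40, without control 2 it was -0.71 and without shIft88 3 it was -0.86, none of them past the threshold. The SD of Hbb-b1 over the 6 libraries had percentile 96.0 among all tested genes. Hbb-b2, Hba-a1 and Brpf3 were most like it (r = 0.9998, 0.999 and 0.993), and as the libraries fall into a high and a low set, these values describe mainly that split.

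All 8 listed haemoglobin rows together took 0.00179%, 0.0125% and 0.0115% of gene counts in the controls against 0.00154%, 0.00787% and 0.000970% in those labelled sh2-Ift88. The exact binomial 95% intervals, which cover counting error only, ran from 0.0121% to 0.0129% in control 2, the highest, and from 0.000856% to 0.00110% in shIft88 3, the lowest. These shares are of all gene counts, of which 4 gene rows took 40.5% in shIft88 3. On scaled sizes the 8 rows summed to 16.7, 113 and 92.6 CPM in the controls. In those labelled sh2-Ift88 they summed to 14.7, 72.1 and 16.2 CPM, so that shIft88 1 was the lowest. Group means were 0.00857% ± 0.00590 and 0.00346% ± 0.00383 (SD, n = 3 each; exact permutation p = 0.2, adjusted p = 0.6 over 4 tests). Left out in turn, the libraries moved the log2 difference of -1.48 to between -2.39 without control 1 and -0.86 without shIft88 3; it was -2.37 without shIft88 2. Hbb-b2 held 0.305 to 0.332 reads per Hbb-b1 read in every library. These beta globin genes, like Hba-a1 and Hba-a2, are near-identical copies, so their split is uncertain. The embryonic globins Hbb-bh1, Hbb-y and Hba-x had 0 to 4 reads per library together.

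Alas2, the red cell form of the first enzyme of haem synthesis, had 14, 50 and 60 reads in the controls, against 9, 51 and 5 in those labelled sh2-Ift88. In CPM this was 0.424, 1.63 and 1.48 in the controls, against 0.255, 1.71 and 0.312 in those labelled sh2-Ift88, high in the same 3 libraries as Hbb-b1. Per Hbb-b1 read there were 0.0619, 0.0318 and 0.0373 Alas2 reads in the controls, against 0.0409, 0.0558 and 0.0510 in those labelled sh2-Ift88. The ratio thus spanned 1.95 times while Hbb-b1 spanned 8.35 times and Alas2 6.73 times. Group means of the ratio were 0.0437 ± 0.0161 and 0.0492 ± 0.00760 (n = 3 each; exact permutation p = 0.6, adjusted p = 0.8). As a share of the reads of both genes, Alas2 held 5.83% in control 1 (95% exact binomial interval 3.23% to 9.59%) and 3.08% in control 2 (2.30% to 4.04%), the highest and the lowest values. The log2 fold change of Alas2 was -0.61 ± 0.90 (SE; edgeR adjusted p = 0.9995), and it turned to 0.26 with the summed haemoglobin level as a covariate. Without shIft88 2 it was -2.05 and without control 1 it was -1.01, while without each of the other libraries it lay between -0.42 and -0.22.

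**Figure D4:**
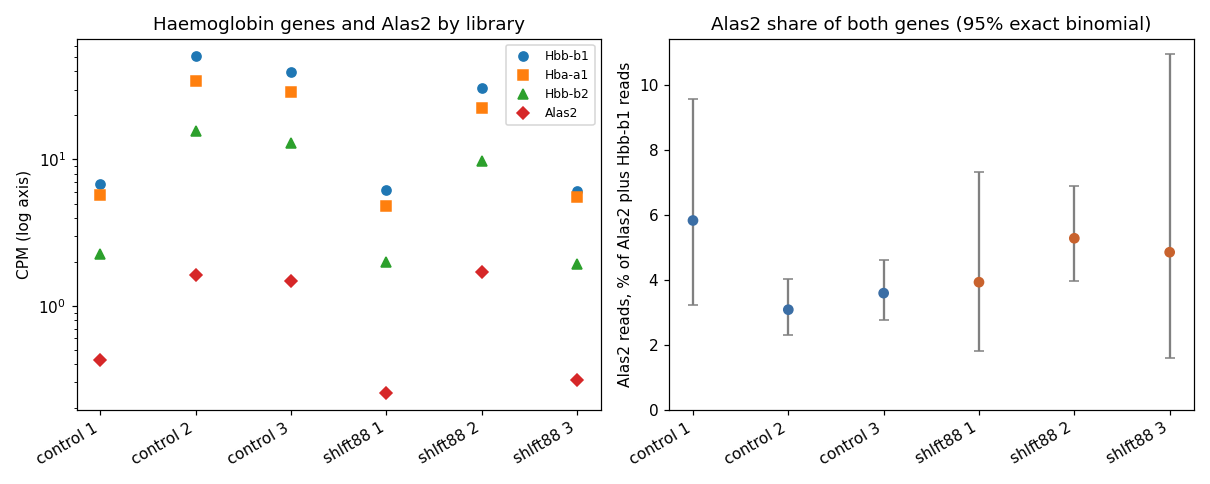
Left, CPM (log axis) of Hbb-b1, Hba-a1, Hbb-b2 and Alas2 in each library; right, Alas2 reads as a percent of Alas2 plus Hbb-b1 reads with exact binomial 95% intervals. All 4 genes are high in control 2, control 3 and shIft88 2, and the share stays between 3.08% and 5.83%.

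Transcription factor genes of red cell precursors were near 0. Gata1, the erythroid transcription factor, had 0 reads in control 1, control 3 and shIft88 1. Klf1, a regulator of globin genes, had 14, 6 and 3 reads in the controls, against 3, 11 and 9 in those labelled sh2-Ift88. That was 0.0742 to 0.562 CPM, the highest being shIft88 3 after scaling, on 9 reads. Of 13 listed red cell marker rows, 5 passed the filter. Granulocyte markers, another blood signal, summed to 0.707 to 4.72 CPM over 9 genes.

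Levels of the members could be ordered per kilobase of exon (GENCODE M21 lengths, for the 9 genes other than Hbb-b1). The order is approximate: lengths join the exons of all annotated transcripts and come from a later build than the counts. How reads were shared between copies of the ferritin genes is not stated. In controls Ftl1 was at 258 ± 53.4 CPM per kilobase, Fth1 at 79.3 ± 13.5 and Tfrc at 23.4 ± 13.1 (mean ± SD, n = 3). The lowest library of Ftl1, 197 CPM per kilobase, lay above the highest of Fth1, 94.5, and the lowest of Fth1, 64.5, above the highest of Tfrc, 38.6. Ireb2 at 15.9 ± 5.19 and Hmox1 at 12.1 ± 9.79 CPM per kilobase were not separated from Tfrc, whose libraries began at 11.8. Slc11a2 at 6.85 ± 1.98 and Slc40a1 at 5.01 ± 3.24 overlapped each other over the 6 libraries. Trf at 0.579 ± 0.128 and Alas2 at 0.578 ± 0.322 CPM per kilobase were the lowest and overlapped each other too, and the highest library of Trf, 2.10, lay above the lowest of Slc40a1, 1.33.

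Wider lists of the pathway gave no called gene either; the counts of higher and lower genes below are of fitted levels, none past the threshold. Of 18 tested iron uptake genes, 10 were higher and 8 lower in libraries labelled sh2-Ift88 (median log2 fold change 0.16), and edgeR called 0. The smallest p values were those of Steap1 and of the ferrireductase Cybrd1. Steap1 was at 98.5, 47.9 and 46.1 CPM in the controls, against 28.2, 33.8 and 31.5 CPM in those labelled sh2-Ift88, without overlap (log2 fold change -1.04, SE 0.34, edgeR adjusted p = 0.9995). Cybrd1 was at 0.151, 0.520 and 0.396 CPM in the controls, against 0.594, 1.18 and 5.62 CPM in those labelled sh2-Ift88, also without overlap and with shIft88 3 far above the rest. Both kept that separation with library totals alone, where 1.07% of all tested genes were higher and 10.2% lower without overlap. As both were named for their small p, the separation is no further evidence, and the same holds for Bmp6, Slc48a1 and Hpx below. On scaled sizes 4.7% of all tested genes were higher and 3.69% lower without overlap. Cybrd1 rests on 5 to 90 reads a library.

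Around the ferritin shell, 1 of 6 tested storage genes was higher and 5 were lower (median -0.10). Pcbp2, an iron chaperone that loads ferritin, was at 159 ± 42.0 CPM in controls, against 232 ± 52.3 CPM in those labelled sh2-Ift88, with overlap; Fth1 had the next smallest p. Ncoa4, the receptor that takes ferritin to the lysosome, was picked after its values were seen: it reached 818 CPM in control 1 and 535 CPM in shIft88 2, and lay at 84.0 to 230 CPM in the others, a span of 9.74 times beside the 1.46 times of Fth1. In the export and hepcidin list 5 of 6 tested genes were higher and Slc40a1 alone was lower (median 0.44). Bmp6, a ligand that induces hepcidin in liver, was at 15.7, 20.2 and 3.44 CPM in the controls, against 23.4, 65.0 and 60.4 CPM in those labelled sh2-Ift88, without overlap (log2 fold change 1.92, SE 0.68, edgeR adjusted p = 0.9995). Neo1 was at 139 ± 23.5 and 177 ± 16.9 CPM. Hepcidin itself, Hamp, had too few reads to be tested.

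Of 3 genes of the iron regulatory proteins, 2 were higher and 1 lower; Aco1, which encodes iron regulatory protein 1, was at 120 ± 27.9 CPM in controls, against 110 ± 10.1 CPM in those labelled sh2-Ift88. In the haem synthesis list 6 genes of 15 were higher and 9 lower (median -0.018), with log2 fold changes from -0.66 (Cpox) to 0.34 (Fech). Its genes of smallest p were Cpox, at 15.4 ± 4.44 and 9.74 ± 5.28 CPM, and Fech, which inserts the iron, at 40.2 ± 1.33 and 51.1 ± 10.1 CPM. Alas1, the housekeeping counterpart of Alas2, stayed between 30.3 and 36.1 CPM in all 6 libraries, without the split of Alas2. Among 7 tested genes of haem breakdown and transport 3 were higher and 4 lower (median -0.074). Slc48a1, which moves haem out of the endosome, was at 34.9 ± 12.3 CPM in controls, against 62.8 ± 14.9 CPM in those labelled sh2-Ift88, without overlap on scaled sizes but with overlap on library totals (edgeR adjusted p = 0.9995). Hpx, which binds free haem, was at 0.417 ± 0.0620 and 0.609 ± 0.0565 CPM, likewise overlapping on library totals.

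Iron-sulfur cluster assembly had 11 genes higher and 9 lower of 20 (median 0.014), with Glrx5 at 22.6 ± 6.08 CPM in controls, against 16.4 ± 2.07 CPM in those labelled sh2-Ift88 and Nubp1 at 31.8 ± 6.99 and 23.6 ± 5.40 CPM. The list of NRF2 targets and regulators, to which Hmox1 belongs, had 8 of 15 higher and 7 lower (median 0.064). Nqo1 was at 11.1 ± 5.94 and 22.4 ± 6.70 CPM and Gclm, of glutathione synthesis, at 22.7 ± 7.90 and 39.0 ± 10.4 CPM, both overlapping. Next by p, Slc7a11 had a higher fitted level (log2 fold change 1.35), and Nfe2l2 (-0.74) and Me1 (-0.79) a lower one, as had Hmox1 (-0.48, SE 0.66). All 4 tested haemoglobin genes had a lower fitted level (median -1.12), the 2 of smallest p being Hbb-b1 and Hba-a1, the latter at 23.1 ± 15.3 and 10.9 ± 10.03 CPM. These 4 are not separate readings, since they split the libraries alike. Red cell markers had 3 genes higher and 2 lower of 5 (median 0.27), with Bpgm at 14.8 ± 2.58 and 17.9 ± 2.48 CPM.

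**Figure D5:**
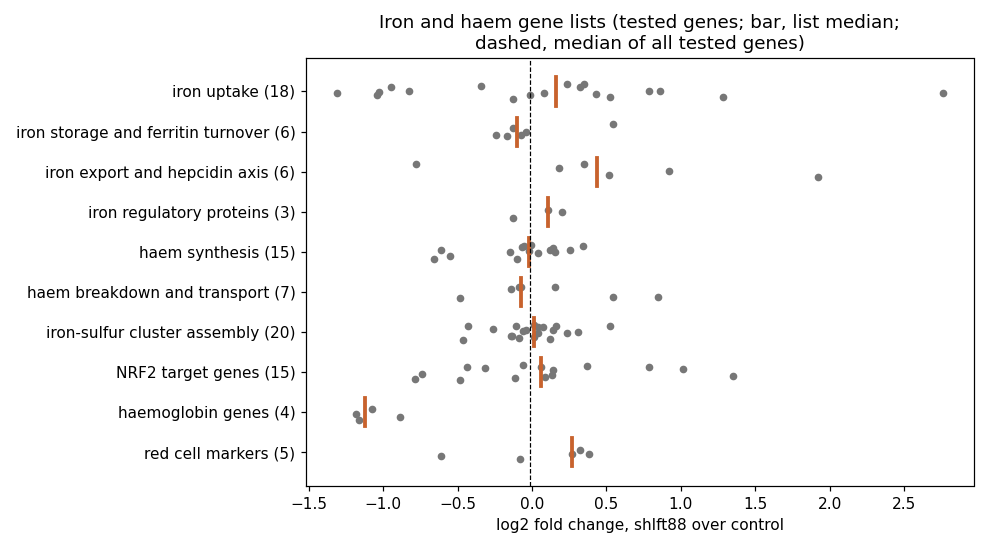
Log2 fold change (shIft88 over control) of each tested gene in the 10 lists, with the number tested in brackets, the list median as a bar and the median of all tested genes, -0.012, as a dashed line. The haemoglobin genes sit together near -1.12, and the medians of haem synthesis and iron-sulfur cluster assembly lie near that of all genes.

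Grouped by the hairpin printed above and not by function, genes with an element in the 5′ UTR had 2 higher and 8 lower of 10 tested (median log2 fold change -0.16), 4 of the lower being members. Without those members, 2 of 6 were higher and 4 lower (median -0.14). Among all tested genes 8165 were higher and 8603 lower. Of 41 tested genes with an element in the 3′ UTR, 19 were higher and 22 lower (median -0.0094), beside -0.012 for all genes. EdgeR called 0 of either group.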

How the data were processed

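RNA-seq gene counts were analysed for 3 control libraries and 3 libraries labelled shIft88, grouped by the tissue label; replicate numbers follow accession order. A stranded kit was used by the authors on total RNA, per the labels' protocols. BWA and mm9 are named in the submitters' processing notes; counting program, strand setting and annotation are not stated. Each library has 1 deposited table of raw counts per gene, whose 5 closing tallies were left out. Reads without a feature were 18.8% to 39.5% of all tallied reads.

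Groups were compared by edgeR 4.0.16 (R 4.3.3; filterByExpr, TMM, glmQLFit with robust=TRUE, two-sided quasi-likelihood test, Benjamini-Hochberg over 16768 genes, threshold 0.05). The code was tried on simulated counts in which all genes shared the same dispersion. That does not show how the test performs on libraries as variable as these. CPM use TMM-scaled library sizes. Standard errors are the log2 fold change over the square root of F. Ratios and the haemoglobin share were compared on the log2 scale by exact permutation.

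Named were the members, Ift88, the called genes of each list or else the 2 of smallest p, and for 4 members the 3 genes of highest Pearson correlation of log2(CPM + 0.5) with a mean of at least 1 CPM. The members and lists were chosen with earlier results of these data known. The alternatives were other scalings, DESeq2 1.42.0, limma-voom (limma 3.58.1), other filters, haemoglobin left out or as a covariate, a term for libraries with over 100 olfactory receptor genes, and each library left out. Fits within the libraries with and without those reads were added after the data were seen.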

Additional observations from a re-analysis of the deposited data

How the results depend on the processing

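No member passed the threshold under any alternative run. The count of genes past the threshold was 0 as reported and in 15 alternatives; it was 58 with DESeq2 and 6 with edgeR without a filter, and 0 with each library left out. The median over all genes was 0.12 unfiltered and -0.33 with library totals alone. Tfrc, Slc40a1, Slc11a2 and Trf kept their sign under all 17 alternatives and Hbb-b1 under the 15 that apply to it. Sign changed for Fth1 within control 2, shIft88 2 and shIft88 3, the libraries with olfactory receptor reads (0.094), for Ftl1 without control 1 (0.047), without shIft88 2 (0.017) and within the libraries without such reads (0.20), and for Hmox1 without control 2 (0.38) and within the libraries without such reads (1.04). It also changed for Ireb2 with library totals alone (-0.12) and without control 1 (-0.048), and for Alas2 with haemoglobin as a covariate (0.26). In those fits within 3 libraries an arm has 1 library, assumed to vary like the other group. The cause of these changes was not tested.

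With libraries left out in turn, Hmox1 ran from -1.01 to 0.38, Ireb2 from -0.048 to 0.34 and Ftl1 from -0.24 to 0.047, and the log2 difference of the Fth1 to Ftl1 ratio ran from -0.26 to 0.22; it turned to 0.22 without control 3 and to 0.095 without shIft88 1. That of Tfrc to Fth1 ran from -0.68 to -0.24 (without control 3), that of Alas2 to Hbb-b1 from 0.023 to 0.50 and that of the haemoglobin share from -2.39 to -0.86. On TMM-scaled sizes the haemoglobin difference was -1.12, and with Hbb-b1 alone -1.56. No paired analysis was possible because the labels carry no replicate numbers. Alas2 rests on 5 to 60 reads a library, and the SE of its log2 fold change, 0.90, was close to that of Hbb-b1, 0.88, at 98 to 1610 reads.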
